A study of Mus musculus with 3 samples.

Results

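The genes described here encode the chains of MHC class I molecules, the machinery that supplies and loads their peptides and a transactivator of class I genes, as read in R1 cells, a line of embryonic stem (ES) cells from strain 129 mice. They are B2m, Tap1, Tap2, Tapbp, H2-K1, H2-D1, Nlrc5, Erap1, Calr and Pdia3, taken as the probe sets whose annotation lists one of these genes and no other. By that rule 8 of the 10 genes were measured, with 26 of 26730 probe sets, and among 19057 genes in all. H2-K1 and H2-D1 were not measured, since each was listed only on 2 probe sets that list several genes. The arrays were Affymetrix Mouse Gene 1.0 ST arrays, with total RNA of 1 biological repeat of the line on each of 3. The 3 arrays form 1 group, with no treatment and no second genotype named in the labels, so no condition was compared. The labels do not say whether feeder cells, LIF or serum were used, and the line is a single genotype.

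MHC class I molecules show peptides from inside the cell to cytotoxic T cells. Each consists of a heavy chain (encoded in the mouse by H2-K1 or H2-D1, among others), the light chain beta-2 microglobulin and a peptide. Peptides made by the proteasome are pumped into the endoplasmic reticulum (ER), trimmed there and loaded with the help of chaperones, and interferons raise the transcription of most of these genes. Embryonic stem cells are known for low class I at the cell surface.

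Promoter windows were available for 8 of the 10 genes, from RefSeq on build GRCm38.p6, each running from 250 bases before the annotated start to 50 bases after it. The sequence is that of strain C57BL/6J, not of the 129 cells. Of these windows, 3 are shown: that of B2m, the gene that differed most between repeats, that of Erap1, whose start lies within a match to the same motif, and that of Tap1, which shares its window with Psmb9. Capitals mark matches on either strand to AANNGAAA (the core that interferon regulatory factors recognise), GGGANTTTC (part of a form of the NF-kappaB site), TGACG (the core of a CREB site) and CCAAT (the NF-Y box). The first pair of motifs was shortened after a search with longer forms. None of the matches in these 3 windows overlaps another.
B2m: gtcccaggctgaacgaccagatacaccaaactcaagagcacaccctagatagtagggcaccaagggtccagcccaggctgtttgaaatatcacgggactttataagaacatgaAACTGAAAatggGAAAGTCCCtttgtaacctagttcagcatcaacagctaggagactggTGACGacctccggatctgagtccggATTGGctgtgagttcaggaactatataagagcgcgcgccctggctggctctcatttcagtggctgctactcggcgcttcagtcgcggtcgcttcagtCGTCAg
Erap1: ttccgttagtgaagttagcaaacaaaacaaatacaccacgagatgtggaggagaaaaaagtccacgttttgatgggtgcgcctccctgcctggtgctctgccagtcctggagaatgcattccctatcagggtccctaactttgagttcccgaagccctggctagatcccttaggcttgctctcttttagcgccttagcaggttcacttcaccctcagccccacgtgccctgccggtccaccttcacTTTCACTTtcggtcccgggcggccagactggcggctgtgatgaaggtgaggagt
Tap1: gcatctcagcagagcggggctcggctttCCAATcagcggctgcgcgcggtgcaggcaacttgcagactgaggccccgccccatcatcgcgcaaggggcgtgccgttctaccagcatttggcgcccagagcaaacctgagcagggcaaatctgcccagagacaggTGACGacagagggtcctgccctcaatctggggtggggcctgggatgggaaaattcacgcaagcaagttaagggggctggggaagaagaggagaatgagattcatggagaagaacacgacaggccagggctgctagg

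The B2m window, chr2:122147437-122147736 on the plus strand, held all 4 motifs. AANNGAAA lay at -137 to -130 and GGGANTTTC, on the minus strand, at -125 to -117, counted from the annotated start as position 1. The first motif is in 23.9% and the second in 1.12% of 32544 windows of the same length. TGACG is in 20.9% of them and CCAAT in 37.4%. The Erap1 window (chr13:74639603-74639902, plus strand) held AANNGAAA once, on the minus strand across the start, from -4 to 4. Among the 8 genes with a window, 5 held AANNGAAA (B2m, Calr, Erap1, H2-K1 and H2-D1), 1 held GGGANTTTC, 5 held TGACG and 7 held CCAAT. Forms of the NF-kappaB site that GGGANTTTC does not match were not counted, so other windows may hold them. The Tap1 window (chr17:34187306-34187605, plus strand) shares 275 bases with the window of Psmb9, an immunoproteasome subunit gene that is transcribed the other way from a start 226 bases away. These matches describe letters in the windows and show no binding.

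Olfactory and vomeronasal receptor genes (1172) set the background: a gene above their 95th percentile on an array was counted as detected there. This cutoff was at log2 intensity 4.72, 4.60 and 4.61 in repeats 1, 2 and 3. All 8 measured genes passed on all 3 arrays, against 67.3% of all genes. A stricter bar, the 99th percentile of the same receptor genes, was passed by 6 of the 8 (51.7% of all genes), without Erap1 and Nlrc5. The 95th percentile of other silent families (keratin-associated proteins, defensins, taste and trace amine receptors), at 5.95, 5.81 and 5.80 in repeats 1, 2 and 3, was passed by 4 (45.1% of all genes), namely B2m, Tapbp, Calr and Pdia3. Tap1 and Tap2 thus passed the first bar and the 99th percentile but not the other silent families on every array. Erap1 and the mean of the Nlrc5 probe sets passed only the first on all 3 arrays. The cutoffs mark a limit of detection, and levels of different genes were not ranked because they depend on the probes.

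**Figure D1:**
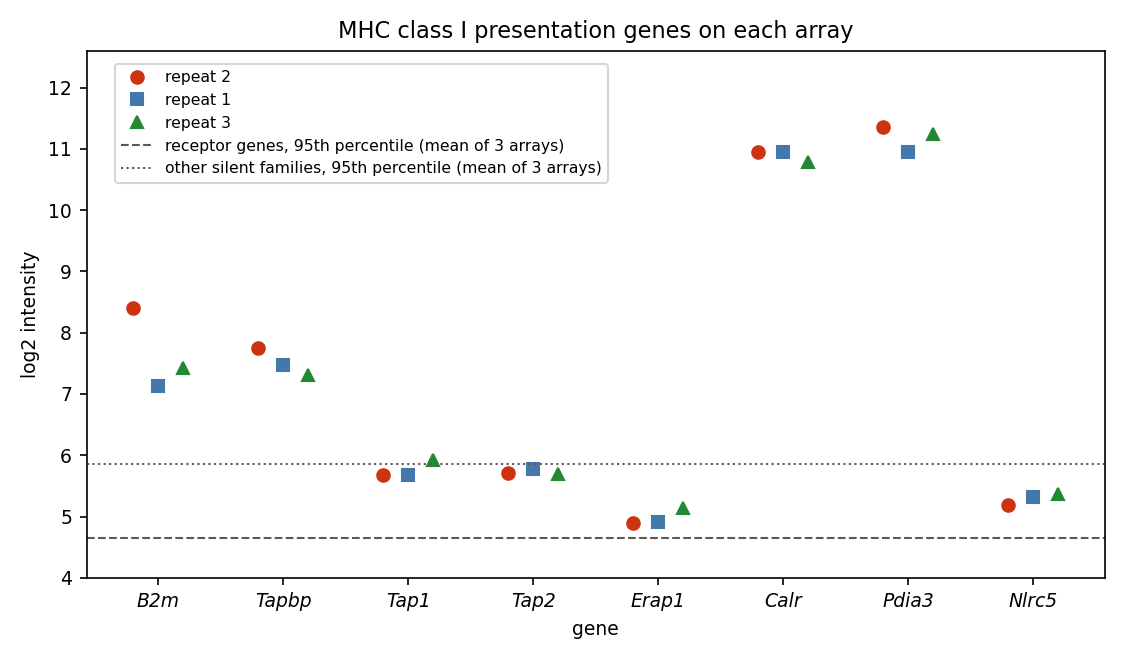
Log2 intensity (vertical axis) of the 8 measured genes on each array, with repeat 2 as circles, repeat 1 as squares and repeat 3 as triangles; the dashed and dotted lines are the 2 background cutoffs averaged over the arrays. B2m stood at 8.40 in repeat 2, above 7.13 and 7.43 in repeats 1 and 3, while Tap1, Tap2, Erap1 and Nlrc5 lay between 4.90 and 5.93 on every array.

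The light chain gene varied most. B2m, which encodes beta-2 microglobulin, read an intensity of 339 in repeat 2, against 139.8 in repeat 1 and 172 in repeat 3. Repeat 2 was the array farthest from the rest, while repeats 1 and 3 lay at log2 7.13 and 7.43. On the log2 scale the gene averaged 7.65 ± 0.67 (SD, n = 3), and repeat 2 lay 1.13 above the mean of the others, a 2.18-fold difference. Its SD exceeded that of 99.9% of the 12825 genes above background on all 3 arrays, whose median SD was 0.101. The limma variance test asks whether a gene differed between repeats by more than genes of like intensity, with Benjamini-Hochberg adjustment over the 13600 genes that passed the background cutoff on 1 array or more. It called B2m (adjusted p = 0.0334), and 0.162% of all genes tested. A difference from repeat 2 by at least that of B2m was seen in 13 of the 12825 genes (0.101%). The call held after median centring (adjusted p = 0.0135 in limma) but was lost after quantile normalization (0.0529), without the robust prior (0.0721), without the trend (0.240), without repeat 1 (0.348) and without repeat 2 (0.910). Over all genes the test called 22, and 0 without repeat 1, 1 without the trend and 34 without repeat 2. Leaving out repeat 2 also removes the array in which B2m stood apart. With repeat 2 left out, the SD of B2m was 0.21.

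None of the chaperones of the loading step passed the test. Tapbp encodes tapasin, which holds class I at the peptide transporter. It read an intensity of 215 in repeat 2, against 178 in repeat 1 and 159 in repeat 3, with the same array highest as for B2m. The difference of repeat 2 was 0.36 log2 units, or 1.28-fold, around a mean of 7.51 ± 0.22 (SD, n = 3; adjusted p = 0.916 in limma). Pdia3 encodes ERp57, a disulfide isomerase of the loading complex. Its intensity was 2631 in repeat 2, against 1986 in repeat 1 and 2418 in repeat 3, so that here repeat 1 was the array farther from the rest. The mean was 11.19 ± 0.21 (SD, n = 3). Its unadjusted p was 0.00887 in the limma variance test, and the adjusted p was 0.516. B2m and Pdia3 were the 2 of the 8 genes with an unadjusted p under 0.05, against 5.75% of all genes tested. Calr encodes calreticulin, a lectin chaperone of the loading step. It read 1966 in repeat 2, against 1972 and 1769 in repeats 1 and 3, with a mean of 10.89 ± 0.089 (SD, n = 3). Calr in repeat 2 was 0.997-fold that in repeat 1, and repeat 3 was the lowest array.

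Neither gene of the peptide transporter passed the test. Tap1 and Tap2 encode the chains of TAP, the pump that moves peptides into the ER. Tap1 had intensities of 51.5, 51.5 and 60.9 in repeats 1, 2 and 3, with a mean log2 of 5.77 ± 0.14 (SD, n = 3). The Tap1 values of repeats 1 and 2 were identical as deposited, as were those of 14 of 26730 probe sets between these 2 arrays. Tap2 read 54.9, 52.6 and 51.6 in repeats 1, 2 and 3, at 5.73 ± 0.046 (SD, n = 3), the smallest SD of the 8 genes. Repeat 2 differed from the mean of the others by -0.12 in Tap1 and -0.017 in Tap2, in log2 units. Erap1, the aminopeptidase that trims peptides in the ER, read 30.1, 29.8 and 35.1 in repeats 1, 2 and 3, at 4.98 ± 0.13 (SD, n = 3). For Tap1 and Erap1 repeat 3 was the highest array and repeats 1 and 2 lay together. None of these 3 genes passed the limma variance test, with an adjusted p of 0.997 for Tap1 and Erap1 and 0.998 for Tap2.

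Nlrc5, the transactivator of class I genes, was read by 19 probe sets. Their mean log2 intensity ran from 3.25 to 8.17, with a median of 5.36 and an SD of 1.15 between probe sets. Between arrays the SD of a probe set ran from 0.046 to 0.25, with a median of 0.10. On all 3 arrays 12 probe sets were above background (67.3% of all genes), 3 were on some arrays and 4 on none. Past the stricter cutoff of the other silent families on all 3 arrays were 5 (45.1% of all genes). The probe set with the highest mean read 286 in repeat 2, against 303 in repeat 1 and 278 in repeat 3, and the next highest 83.6, 87.7 and 94.7 in repeats 2, 1 and 3. Repeat 2 was the highest array for 3 of the 19 probe sets (33.1% of all measured genes), and repeats 1 and 3 for 8 each. The shares beside these counts are of genes, not of probe sets. Averaged over all 19, Nlrc5 read 5.19 in repeat 2, against 5.31 and 5.36 in repeats 1 and 3, with a mean of 5.29 ± 0.087 (SD, n = 3; adjusted p = 0.997 in limma). The files do not say which exon each probe set reads, and a single level for the gene depends on the probe sets averaged.

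**Figure D2:**
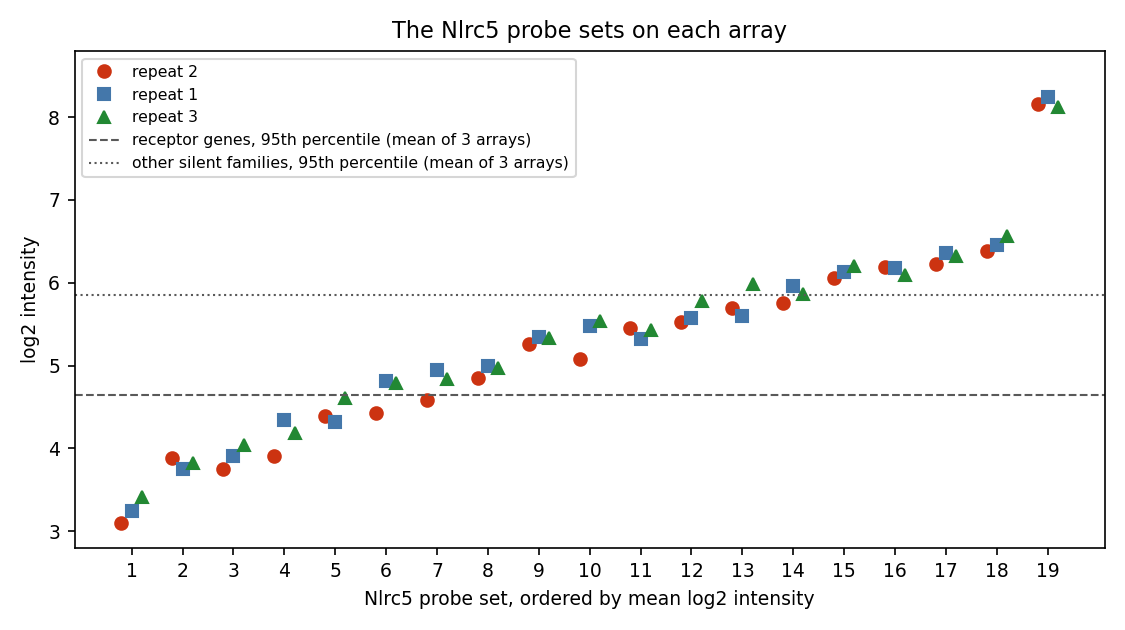
Log2 intensity (vertical axis) of the 19 Nlrc5 probe sets on each array, ordered by mean along the horizontal axis, with circles for repeat 2, squares for repeat 1 and triangles for repeat 3, and background cutoffs averaged over the arrays as lines. One probe set averaged 8.17, the next highest 6.47, and the lowest 3.25.

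As a list, the 8 genes had a median SD of 0.136 log2 units, against 0.103 over all 13600 genes tested. Repeat 2 differed from the mean of the others by a median of 0.029 in the 8 genes and 0.0040 over all genes. The highest array was repeat 2 for B2m, Tapbp and Pdia3 (3 of 8, against 36.4% of all genes), repeat 3 for Tap1, Erap1 and Nlrc5 (3 of 8, against 33.1%), and repeat 1 for Tap2 and Calr (2 of 8, against 30.5%). These shares lie near those of all genes. With the highest Nlrc5 probe set in place of the mean of 19, the difference of repeat 3 from the others in Nlrc5 turned from 0.11 to -0.085 log2 units, so that its highest array depends on the probe sets used. Both probe sets that list H2-K1 and H2-D1 together read highest in repeat 2, by 0.65 and 0.50 log2 units. They belong to no one gene and were not among the genes counted here.

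**Figure D3:**
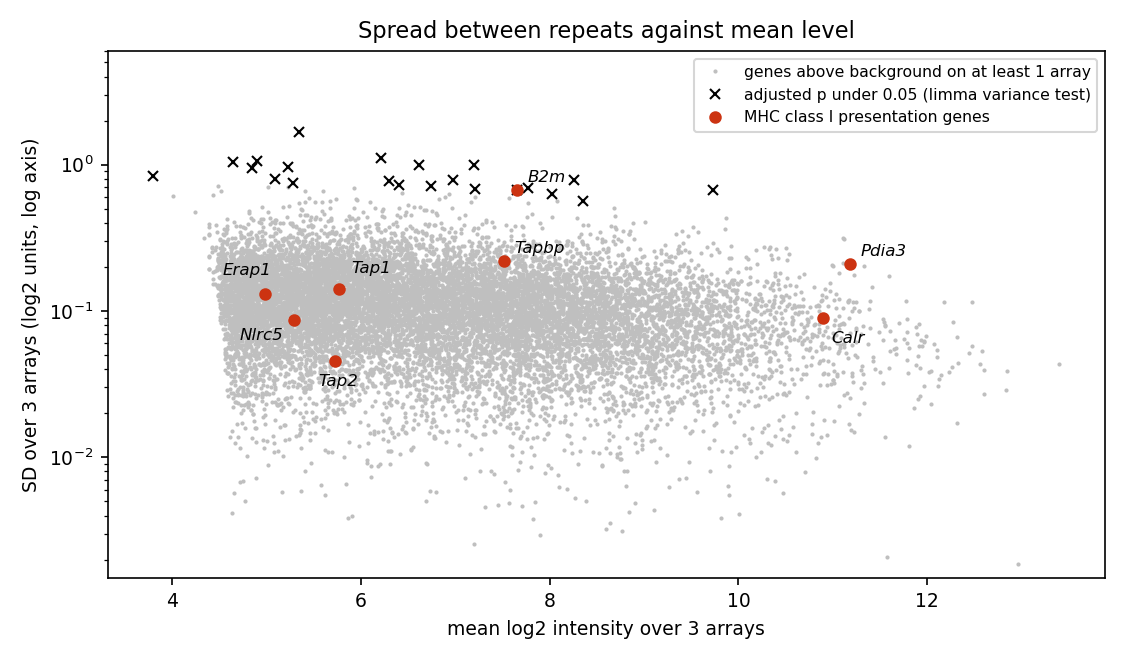
SD over the 3 arrays in log2 units (vertical log axis) against mean log2 intensity (horizontal axis) for the 13600 tested genes (grey), the 22 genes called by the limma variance test (crosses) and the 8 class I presentation genes (red). B2m lies among the called genes at an SD of 0.67, and the others lie between 0.046 and 0.22.

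At the other steps of the pathway most genes were detected. In the proteasome list, 8 of 9 genes were above background on all 3 arrays (67.3% of all genes) and 0 of the 9 were called (0.162% of all genes tested). Its immunoproteasome subunits Psmb9 and Psmb10 averaged 7.01 ± 0.10 and 6.61 ± 0.15 log2 units (SD, n = 3). Psmb8, another of these subunits, passed the background cutoff on 2 arrays at 5.03, 4.65 and 4.67 in repeats 2, 1 and 3. The 7 measured cytosolic peptidases, which trim or destroy peptides before transport, were all above background, with Tpp2 at 8.76 ± 0.038, Lap3 at 9.93 ± 0.076, Npepps at 9.42 ± 0.060 and Thop1 at 7.70 ± 0.099 (SD, n = 3). So were all 12 genes of ER folding, including the lectin chaperone Canx at 11.33 ± 0.032, the glucosyltransferase Uggt1 at 8.91 ± 0.028 and the tapasin relative Tapbpl at 5.06 ± 0.14 (SD, n = 3). The limma variance test called 0 genes in both lists (0.162% of all genes tested), and 0 had an unadjusted p under 0.05 (5.75% of all genes), so these counts lie near those of all genes.

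Class I-like and class II genes read low for the most part. Of 24 measured class I-like genes 9 were above background on all 3 arrays, against 67.3% of all genes, and 12 on none. The cutoff of the other silent families was passed on all 3 arrays by 1, H2-M5 at 6.86 ± 0.095 (SD, n = 3), against 45.1% of all genes. H2-M3, which presents formylated peptides, averaged 5.05 ± 0.11, H2-T10 5.34 ± 0.16, H2-T24 4.61 ± 0.080 and H2-Q4 5.54 ± 0.24 (SD, n = 3), and these families hold close copies, so that single members are uncertain. Raet1d and H60b, ligands of the NKG2D receptor of killer cells, read 4.33 ± 0.22 and 3.99 ± 0.26 (SD, n = 3) and were below background on all 3 arrays. Of 7 measured genes of the class II pathway 3 were above background on all 3 arrays. These were H2-Ab1 at 4.91 ± 0.18, H2-Eb1 at 5.99 ± 0.066 and Ifi30 at 8.63 ± 0.028 (SD, n = 3). Of the class II genes only Ifi30 passed the cutoff of the other silent families on all 3 arrays, against 45.1% of all genes. H2-Aa read 3.42 ± 0.12 (SD, n = 3) and was below background on each array. In limma's variance test 0 genes of these lists were called (0.162% of all genes tested), and 0 had an unadjusted p under 0.05 (5.75% of all genes).

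Transcription factors of class I promoters and the interferon receptors with their kinases and inhibitors were above background on all 3 arrays, with 15 of 15 and 9 of 9 measured genes, against 67.3% of all genes. The cutoff of the other silent families was passed on all 3 arrays by 10 of the 15 and 7 of the 9, against 45.1% of all genes. Rfx5, Rfxap and Rfxank, subunits of the RFX complex to which Nlrc5 is recruited, averaged 5.32 ± 0.062, 6.68 ± 0.11 and 6.57 ± 0.036 (SD, n = 3). Irf9, a DNA-binding factor of the interferon response, read 6.88 in repeat 2, against 6.15 and 6.60 in repeats 1 and 3 (adjusted p = 0.494 in limma). The kinase Jak2 read 6.29 in repeat 2, against 5.73 in both other repeats (adjusted p = 0.727 in limma). The receptor chains Ifngr1, Ifngr2 and Ifnar1 averaged 5.76 ± 0.18, 7.05 ± 0.096 and 7.47 ± 0.048 (SD, n = 3). The limma variance test called 0 genes of either list, while 1 of the 15 factors and 2 of the 9 receptor and kinase genes had an unadjusted p under 0.05. Over all genes tested these shares were 0.162% and 5.75%.

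Repeat 2 was the highest array for most interferon-induced genes and fibroblast markers, as for B2m, and by a smaller difference for most ES cell markers. Among 11 interferon-induced genes above background on all 3 arrays, repeat 2 was the highest in 10 (against 36.9% of all such genes), with a median difference of 0.72 log2 units from the mean of the others. Over all 20 measured genes of that list, background or not, it was the highest in 16 (33.1% of all genes). The limma variance test called 5 of the 15 genes of that list that were tested, against 0.162% of all genes tested. These were Irgm1 at 1.90 log2 units above the others (adjusted p = 0.00749), Usp18 (adjusted p = 0.0112), Rtp4 (0.0142), Ifi27 (0.0337) and Lgals9 (0.0433). Usp18 and Rtp4 were above background on 2 arrays only. Other genes of that list read low, as Iigp1 did at 3.25 ± 0.22, or did not pass, as Gbp3 did not at 5.09 ± 0.42 (SD, n = 3; adjusted p = 0.434 in limma). Of 11 fibroblast markers above background on all 3 arrays, repeat 2 was the highest in 10 (against 36.9% of all such genes). Their median difference was 0.61. Of 8 ES cell markers repeat 2 was the highest in 6 (against the same 36.9%), with a median difference of 0.10. The lists were chosen with earlier results of these data known, so these counts are descriptive only. Among the 11 fibroblast markers tested, the limma variance test called 4, against 0.162% of all genes tested. These were Acta2 (adjusted p = 0.00832), Thbs1 (0.00832), Lox (0.0196) and Timp3 (0.0340), and not Col1a1, Col1a2 or Col3a1 (adjusted p = 0.249, 0.538 and 0.848). Over all genes the test called 22, of which 20 were highest in repeat 2. Without repeat 2 it called 1 of these 5 interferon-induced genes and 0 of these 4 markers, and without repeat 1, or without the trend in the prior, it called 0 of either. Over all genes the counts in these settings were 34, 0 and 1. Of the 9 alternatives, 1 kept the call of Lgals9, and 3 kept that of Ifi27 and that of Timp3.

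The summed intensity of the 12 measured fibroblast markers was 4222 in repeat 2, against 2369 and 2359 in repeats 1 and 3, and only Lum was below background on all 3 arrays. Without Thbs1, the brightest of them, the sum was 2773 in repeat 2, against 1695 and 1729 in repeats 1 and 3. For the 10 leukocyte markers the sum was 834 in repeat 2, against 855 and 996 in repeats 1 and 3. Of these markers 6 were below background on every array, against 5457 of all 19057 genes. Among the 6 was the pan-leukocyte gene Ptprc at 3.70 ± 0.030 (SD, n = 3). Without Laptm5, the brightest, the sum was 387 in repeat 2, against 380.1 and 389 in repeats 1 and 3. Above background on all 3 arrays were 4 (67.3% of all genes): Coro1a at 6.42 ± 0.037, Laptm5 at 8.98 ± 0.23, Cd68 at 7.33 ± 0.11 and Cd3e at 5.50 ± 0.18 (SD, n = 3). The cutoff of the other silent families was passed on all 3 arrays by 3 (45.1% of all genes), without Cd3e. Repeat 2 was the highest array for 1 of the 4 above background, Cd68, against 36.9% of all genes above background on all 3 arrays. All 8 measured ES cell markers were above background on all 3 arrays (67.3% of all genes). Their summed intensity was 20581 in repeat 2, against 19249 and 18997 in repeats 1 and 3. The limma variance test called 0 of the 8 (0.162% of all genes tested). Nanog and Zfp42 had an unadjusted p of 0.0121 and 0.000534 in that test, where 5.75% of all genes were under 0.05. Without repeat 2 the same test called Zfp42 (adjusted p = 0.0100). Pou5f1 averaged 11.77 ± 0.12, Sox2 10.78 ± 0.017, Nanog 11.002 ± 0.20 and Zfp42 11.11 ± 0.32 (SD, n = 3). The part of fibroblast RNA or of an interferon response in the B2m difference was not tested. In bulk RNA, more cells of a type and more RNA per cell cannot be told apart.

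**Figure D4:**
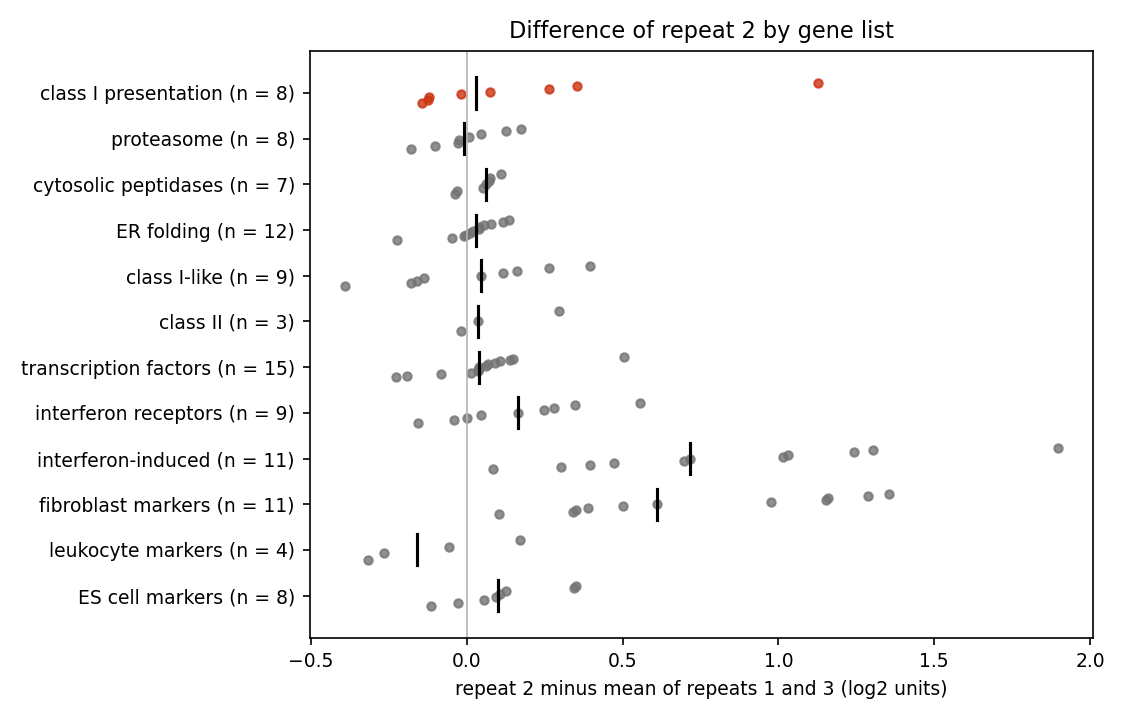
Difference of repeat 2 from the mean of repeats 1 and 3 in log2 units (horizontal axis) for each gene above background on all 3 arrays, by list, with the list's median as a bar. B2m is the red point at 1.13, the other class I presentation genes lie between -0.14 and 0.36, and the medians of the interferon-induced and fibroblast lists are 0.72 and 0.61.

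The 5 genes whose values over the 3 arrays, centred on their own mean, lay nearest to those of B2m among 12817 genes were Tagln, Anxa1, Eif2ak2, Oasl2 and Postn. Their root mean square difference from B2m ran from 0.058 log2 units for Tagln to 0.072 for Postn. Tagln, an actin-binding protein of smooth muscle and fibroblasts, read 7.88 in repeat 2, against 6.72 and 7.02 in repeats 1 and 3. Eif2ak2, the interferon-induced kinase PKR, read 7.65 in repeat 2, against 6.49 and 6.65 in repeats 1 and 3. The likeness rests on 3 arrays and was given no test.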

How the data were processed

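Total RNA of 3 biological repeats of R1 ES cells was read on 3 Affymetrix Mouse Gene 1.0 ST arrays, biotin-labelled per the labels' protocols. The deposited values are probe set intensity on a linear scale; the submitters' processing notes name GCOS 1.4, and how background, normalization and summary were handled is not given in the sources used here. Array medians were 47.8, 46.7 and 46.8, and no further normalization was applied. Intensity was put on the log2 scale after a lower limit of 1, which changed 0 deposited values. The platform annotation named 20764 of 26730 probe sets with 1 symbol, 1419 with several and 4547 with none. Gene values and tests used only the first kind. Symbols were checked by gene identifier against RefSeq (assembly GRCm38.p6), where 20678 probe sets matched. Probe sets of a gene were averaged (930 genes had several). Variance between repeats was tested with limma 3.58.1 in R 4.3.3 (intercept-only fit, trended robust prior, F with 2 and 9.85 degrees of freedom), a fit also run on simulated data; Python 3.11.15, numpy 2.4.6, pandas 2.3.3 and matplotlib 3.10.9 did the rest. The number of arrays limits precision. The repeats are biological per the labels, which leave the cultures undescribed. The p-values set a gene's variance between these samples against that of genes of like intensity. Members and gene lists were chosen with earlier results of these data known. Named genes are all members, and in each other list every called gene, the one with the largest SD and the first 3 measured, plus the 5 nearest to B2m; any further gene was named with its values known. The alternatives tried were other background cutoffs, normalizations, filters, priors and probe set rules, and leaving out each repeat.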

Additional observations from a re-analysis of the deposited data

How the results depend on the processing

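All 8 measured class I presentation genes stayed above background when 2 of 3 arrays sufficed, after quantile normalization, with the highest probe set of each gene and without each repeat in turn (8 to 8). The count was 6 at the 99th percentile of the receptor genes and 4 with the other silent families. The count of these genes called by the limma variance test was 1, namely B2m, and became 0 after quantile normalization and 0 under either simpler prior (no robust fit, or no trend), and ran from 0 to 1 when each repeat was left out. For B2m, 4 of 9 alternatives kept the call and 5 lost it, with adjusted p from 0.0135 to 0.910. The other 7 genes stayed uncalled under every one of these alternatives. Over all genes the count of 22 became 13 after quantile normalization, 39 after median centring, 10 when the prior was not robust and 1 when it had no trend, and ran from 0 to 34 when each repeat was left out. The median SD of the 8 genes was 0.136 and ran from 0.0641 to 0.143 when each repeat was left out, and up to 0.145 after median centring. The cause of these changes was not tested. With the highest Nlrc5 probe set in place of the mean of 19, the difference of repeat 2 was -0.022 in place of -0.14 log2 units and that of repeat 3 was -0.085 in place of 0.11, and the median difference of repeat 3 over the 8 genes was -0.072 in place of 0.011. No paired analysis was possible because the labels give 1 group.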

Other observations

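Both probe sets that list H2-K1 and H2-D1 together, with LOC547349, were left out of the gene values, counts and tests because they belong to no one gene. The first read an intensity of 259 in repeat 2, against 170.3 and 160.1 in repeats 1 and 3, and the second 313 in repeat 2, against 228 and 213 in repeats 1 and 3. Repeat 2 was the highest array for both, by 0.65 and 0.50 log2 units over the mean of the others, or 1.57-fold and 1.42-fold, with no test. Both were above each of the background cutoffs on all 3 arrays. A further 2 probe sets list Tapbp together with the ribosomal protein gene Rps3a1, and repeat 2 lay 0.11 and 0.014 log2 units above the mean of the others there.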
